A study of Mus musculus with 8 samples.

Results

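The mitochondrial ribosomal proteins are the nuclear-encoded proteins of the ribosome inside mitochondria. They were taken as every row of the count table whose gene identifier maps to a mouse symbol made of Mrpl or Mrps and a number. This gave 78 genes of the 18395 in the table, 49 named Mrpl for the large subunit and 29 named Mrps for the small subunit, and 4 rows named as pseudogenes were left out. The measurements came from polyadenylated RNA of mouse adipose tissue, in 4 libraries labelled WT and 4 labelled KO. KO mice lacked Kindlin-2, the integrin co-activator encoded by Fermt2, in brown adipocytes, and mice of both groups had been kept at 4 °C for 6 h. There was thus no group at a warmer temperature. The labels name neither the fat depot, the Cre driver, the strain, the sex nor the age, and they do not say that each library came from a separate animal, so a p-value here reflects library-to-library spread, which may be technical.

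Mitochondrial DNA encodes a small set of respiratory chain and ATP synthase proteins, and the mitochondrial ribosome translates their mRNAs. Its small subunit holds the mRNA and reads the codons, and its large subunit joins the amino acids and passes the new protein towards the inner membrane. The RNA of both subunits is transcribed inside the organelle, whereas each ribosomal protein is made in the cytosol, imported and assembled onto it. Brown adipocytes carry dense mitochondria whose respiratory chain is uncoupled by Ucp1 to give heat, and so depend on this translation. The names do not fully match the structure: the proteins of Mrps18a and Mrps30 sit in the large subunit, and Mrps36 encodes a component of the 2-oxoglutarate dehydrogenase complex that was first named as a ribosomal protein.

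Library totals ran from 33672272 to 43253559 counts in WT and from 35734373 to 40927141 in KO. The least counted member, Mrps22, had 419 counts in its lowest library, and all 78 members passed the filter on low counts that left 13901 genes to test. Levels below are in CPM, counts relative to a library's total, adjusted by TMM factors (edgeR's default scaling). Fermt2 lay at 239, 235, 244 and 201 CPM in WT replicates 1 to 4 and at 192, 132, 173 and 174 CPM in KO replicates 1 to 4. The groups did not overlap, although the log2 fold change of -0.45 ± 0.14 (SE) had an adjusted p of 0.134 by edgeR's quasi-likelihood test. Other cell types of the tissue keep the gene by design. Skeletal muscle markers stood apart in WT replicate 3, at a summed 39831 CPM against 4.14 to 257 CPM in the other 7 libraries. KO replicate 2 held the highest summed dendritic cell markers, at 1463 CPM against 320 to 798 CPM elsewhere. Counts of called genes are therefore also given for the 6 libraries without these 2. In those 6 libraries Fermt2 had a log2 fold change of -0.32, with an adjusted p of 0.159 by edgeR's quasi-likelihood test.

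The promoters of these genes were compared first. RefSeq gave a window from 250 bases before to 50 after the start for 69 of the 78 members, on build GRCm38.p6, and for 10609 of the tested genes. Each window was searched on both strands for 5 motifs. The motif GCGCANGCG, the core bound by the nuclear respiratory factor NRF1, stood in 16 members (23.2%) and in 14.4% of the tested genes. CCGGAAG, the core bound by ETS factors such as GABPA (also called NRF2), stood in 26 members (37.7%) and in 18.9% of the tested genes. AANATGGCG, a core bound by YY1, stood in 11 members (15.9%) and in 5.61% of the tested genes. CCAAT stood in 27 members, 39.1% against 42.8%, and TATAAA in 5 members, 7.25% against 9.13%. None of these motifs contains another, and a match describes letters, not binding. By subunit, NRF1 letters stood in 12 of 43 large and 4 of 26 small subunit windows, ETS letters in 15 and 11, and YY1 letters in 6 and 5.

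The 4 windows below, from 250 bases before to 30 after the start, stand for the behaviours described further on. Mrpl50 had the smallest p of all members, Mrpl44 was low in every KO library, Mrpl12 was low in KO replicates 1 and 2 only, and Mrps18a overlapped between the groups. Each is written in its gene's own direction, with matches to the 5 motifs in capitals. Mrpl50 lies on the minus strand at chr4:49521054-49521333, and holds none of the NRF1, ETS or YY1 letters but CCAAT at position -233 and, as ATTGG, at -17.
Mrpl50: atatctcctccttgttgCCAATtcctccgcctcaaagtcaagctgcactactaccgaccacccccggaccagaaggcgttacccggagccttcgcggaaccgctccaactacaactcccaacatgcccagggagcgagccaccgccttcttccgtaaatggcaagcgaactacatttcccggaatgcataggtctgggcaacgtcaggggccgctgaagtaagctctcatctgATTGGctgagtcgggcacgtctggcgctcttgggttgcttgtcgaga
Mrpl44 lies on the plus strand at chr1:79775768-79776047 and holds the NRF1 letters at -35.
Mrpl44: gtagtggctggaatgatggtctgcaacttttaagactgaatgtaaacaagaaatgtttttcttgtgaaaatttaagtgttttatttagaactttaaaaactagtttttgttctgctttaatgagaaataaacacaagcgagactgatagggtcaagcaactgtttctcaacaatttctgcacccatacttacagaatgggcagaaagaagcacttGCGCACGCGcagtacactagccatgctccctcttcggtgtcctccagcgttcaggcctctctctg
Mrpl12 lies on the plus strand at chr11:120484387-120484666 and holds the NRF1 letters, read from the other strand, at -80.
Mrpl12: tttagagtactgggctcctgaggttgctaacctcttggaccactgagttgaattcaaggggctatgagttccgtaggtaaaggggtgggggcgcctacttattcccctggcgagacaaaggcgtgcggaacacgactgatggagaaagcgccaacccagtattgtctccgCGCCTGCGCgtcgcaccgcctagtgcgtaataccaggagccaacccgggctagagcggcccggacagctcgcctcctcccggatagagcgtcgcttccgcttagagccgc
Mrps18a lies on the plus strand at chr17:46110754-46111033 and holds CCAAT at -196, the ETS letters at -26 and the YY1 letters at 12.
Mrps18a: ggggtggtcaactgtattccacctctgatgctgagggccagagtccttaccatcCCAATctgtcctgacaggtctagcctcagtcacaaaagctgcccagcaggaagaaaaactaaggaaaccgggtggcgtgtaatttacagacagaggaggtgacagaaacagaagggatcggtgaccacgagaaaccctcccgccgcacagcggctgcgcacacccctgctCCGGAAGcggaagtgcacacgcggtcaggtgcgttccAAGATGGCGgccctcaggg
Members with and without each set of letters lay close to each other between KO and WT. The median log2 fold change was -0.22 with and -0.20 without NRF1 letters, -0.17 and -0.22 for ETS letters, and -0.20 and -0.22 for YY1 letters. It was -0.16 with and -0.22 without CCAAT, and -0.19 and -0.22 for TATAAA.

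Between KO and WT, 74 of the 78 members (94.9%) had a log2 fold change below 0, where 49.5% of all tested genes did. The median was -0.22 over the members and 0.00 over all genes, and the members ranged from -0.63 for Mrpl50 to 0.04 for Mrps6. No member passed an adjusted p of 0.05 in edgeR's quasi-likelihood test, in which 0.00% of the 13901 genes were called. Without adjustment, 18 members (23.1%) had a p under 0.05, all of them lower in KO, against 11.1% of all genes lower and 10.4% higher. In 16 members (20.5%) the highest KO library was under the lowest WT library, as was so for 7.56% of all genes. In 0 members did the KO libraries all exceed those of WT, against 5.80% of all genes. In whole tissue, fewer brown adipocytes and less RNA per brown adipocyte cannot be told apart.

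Scaling set where 0 lay. Scaled by total library size alone, the median of all genes moved to 0.26 and that of the members to 0.04, and 27 members (34.6%) lay below 0 against 24.0% of all genes. That scaling called 0 members, with 6.17% of all genes called higher and 0.173% called lower. Such a change shifts nearly all genes by about the same amount, so the members' place among all genes is the same under each scaling by construction: 74 of 78 lay below the median of all genes under TMM and under total size. Leaving out KO replicate 1 did move it, to 61 of 78 members below that median. The members' median minus that of all genes was then -0.12 in place of -0.22. Unscaled, the members took 0.454, 0.501, 0.458 and 0.484% of all counts in WT replicates 1 to 4 and 0.422, 0.476, 0.512 and 0.540% in KO replicates 1 to 4. These shares overlapped, with KO replicates 3 and 4 above every WT library. Directions below are those under TMM unless a ratio within libraries is given.

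**Figure D1:**
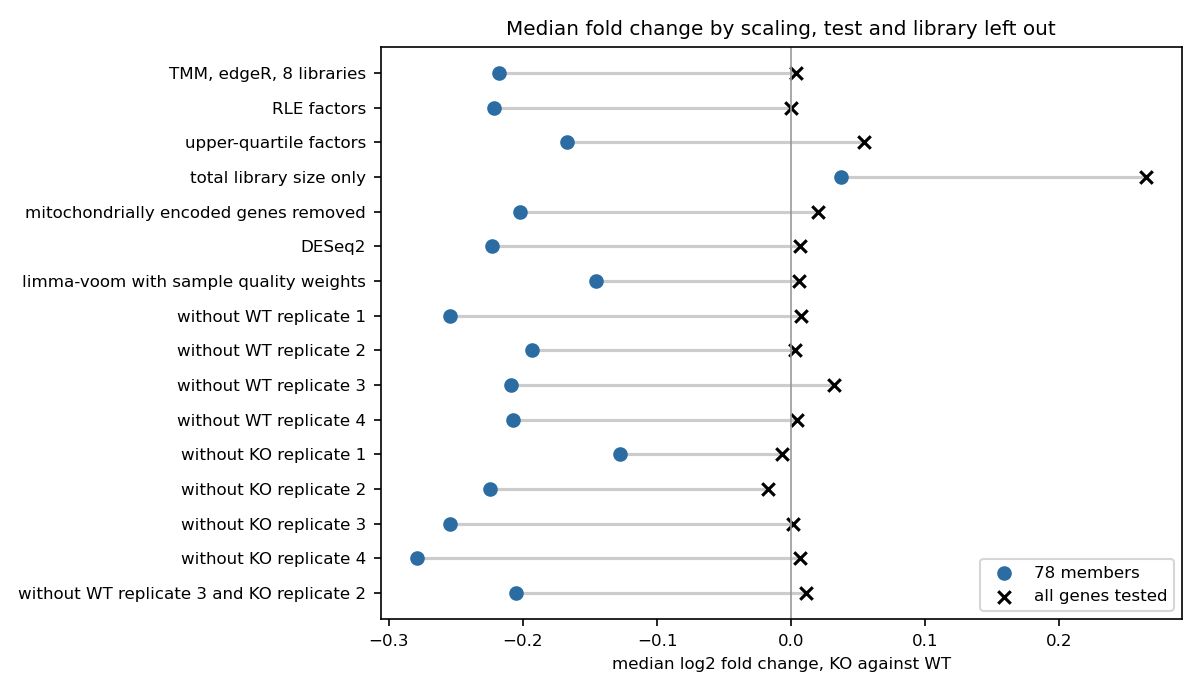
Median log2 fold change, KO against WT, of the 78 members (circles) and of all genes tested (crosses), for each scaling, test and set of libraries. The members lay below all genes in every line, and total library size moved the members' median to 0.04 and that of all genes to 0.26.

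Other tests called between 0 and 6 members, all lower in KO. DESeq2 called 5 (6.41%, against 4.14% of all genes called lower): Mrpl50 with an adjusted p of 0.000358, Mrps18b with 0.0153, Mrps31 with 0.0204, Mrpl10 with 0.0265 and Mrpl1 with 0.0354. Limma-voom with sample quality weights called the same 5 and Mrpl38, with 3.76% of all genes called lower. In the 6 libraries without WT replicate 3 and KO replicate 2, edgeR called 2 members (2.56%), both lower, against 1.50% of all genes called lower and 1.82% called higher. These were Mrpl50, with a log2 fold change of -0.62 and an adjusted p of 0.0414, and Mrps18b, with -0.71 and 0.0464. In those 6 libraries 67 members lay below 0, where 48.9% of all genes did, and the members' median was -0.20.

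The medians of the large and small subunits lay close to each other. Of the 49 Mrpl genes 48 were below 0, with a median log2 fold change of -0.22, and of the 29 Mrps genes 26 were below 0, with a median of -0.19. The medians differed by -0.03, a value that 1 library could turn: it was 0.01 without KO replicate 2, 0.00 in the 6 libraries, -0.06 without WT replicate 2 and -0.09 without KO replicate 4. The mean log2 CPM of Mrpl genes minus that of Mrps genes was 0.17, 0.17, 0.21 and 0.18 in WT replicates 1 to 4 and 0.15, 0.12, 0.15 and 0.18 in KO replicates 1 to 4. KO replicates 1 to 3 lay below all WT libraries and KO replicate 4 within them. Unadjusted p-values under 0.05, all lower, numbered 13 among Mrpl and 5 among Mrps genes, where 11.1% of all genes had one. The groups did not overlap in 11 Mrpl (22.4%) and 5 Mrps genes (17.2%), with KO lower, against 7.56% of all genes. Moving Mrps18a and Mrps30 to the large subunit and leaving out Mrps36, as the structure has it, left medians of -0.22 over 51 and -0.19 over 26 genes.

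The Mrpl genes summed to 3343, 3529, 3537 and 3522 CPM in WT replicates 1 to 4 and 2401, 2851, 3249 and 3337 CPM in KO replicates 1 to 4. Every KO library lay below every WT library, by a narrow margin for KO replicate 4. The Mrps genes summed to 1650, 1755, 1708 and 1733 CPM in WT and 1259, 1502, 1637 and 1654 CPM in KO. Here KO replicate 4 lay above WT replicate 1, and the groups overlapped. The ratio of the 2 sums, in which the scaling cancels, was 2.03, 2.01, 2.07 and 2.03 in WT and 1.91, 1.90, 1.99 and 2.02 in KO. With means of 2.03 ± 0.03 and 1.95 ± 0.06 (SD, n = 4), KO replicates 1 to 3 lay below all WT libraries and KO replicate 4 within them. Counted by structure, the ratio averaged 2.48 ± 0.04 in WT and 2.38 ± 0.05 in KO, again with 3 KO libraries below all WT.

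Among the 31 large subunit proteins of families shared with bacterial ribosomes, 30 lay below 0 with a median log2 fold change of -0.22. The 20 large subunit proteins found only in mitochondrial ribosomes had 19 below 0 and a median of -0.24. In the small subunit the 16 bacterial-family genes had 14 below 0 and a median of -0.13, and the 10 mitochondria-specific genes had 10 below 0 and a median of -0.28. No overlap, with KO lower, was found in 5, 7, 1 and 2 genes of these 4 classes, against 7.56% of all genes. Mrps18b, at -0.60, was counted as mitochondria-specific, whereas its paralogs Mrps18a and Mrps18c were counted as bacterial-family. The small subunit medians therefore depend in part on that label. In the large subunit, Mrps18a was the 1 bacterial-family gene above 0, so that count depends on its label too. The classes were not tested against each other.

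**Figure D2:**
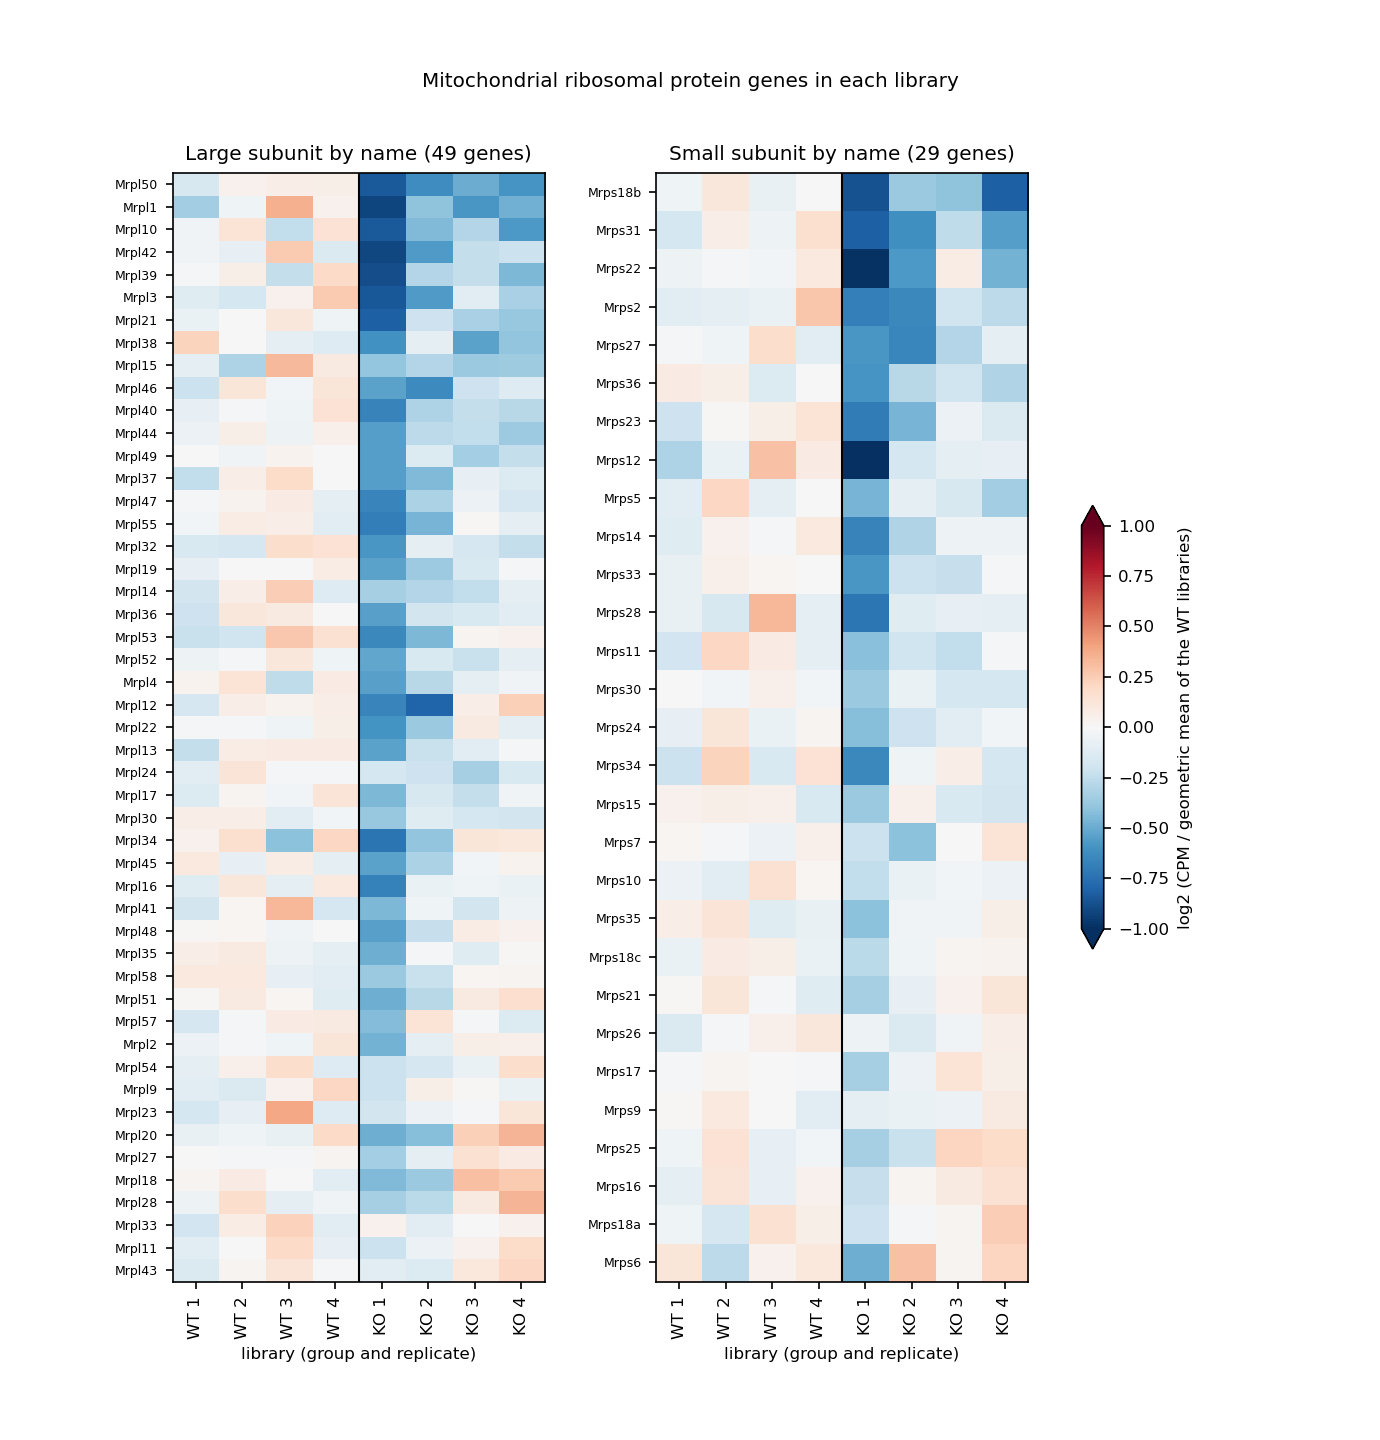
Log2 ratio of each member's CPM to its geometric mean in WT, under TMM scaling, with 1 row per gene, ordered by fold change, and 1 column per library. Blue is below and red above the WT mean. KO replicate 1 is the bluest column in both subunits, and the upper rows are blue in all 4 KO columns.

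The member with the smallest p was Mrpl50, a large subunit protein with no bacterial counterpart. It lay at 51.5, 59.3, 60.2 and 59.9 CPM in WT and 32.1, 37.5, 40.8 and 38.3 CPM in KO. The lowest WT library stood well above the highest KO library. By edgeR the log2 fold change was -0.63 ± 0.11 (SE) and the p 0.000208, or 0.0915 after adjustment. Over all alternatives its log2 fold change ranged from -0.69 to -0.38 and its adjusted p from 0.000358 to 0.238. It was the 1 member under an adjusted p of 0.10, a threshold that 1.79% of all genes passed.

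Proteins of the large subunit's 2 mobile stalks differed among themselves. Mrpl1 belongs to the stalk through which spent tRNA leaves. It lay at 22.1, 27.3, 36.0 and 29.0 CPM in WT and 14.9, 21.3, 18.8 and 20.2 CPM in KO, without overlap, with a log2 fold change of -0.61 ± 0.17 and an adjusted p of 0.126 by edgeR. WT replicate 3, the library with muscle markers, was the highest for this gene. Mrpl10 forms the base of the opposite stalk, which receives translation factors. It lay at 71.0, 80.1, 61.2 and 80.3 CPM in WT and 40.7, 53.5, 59.2 and 48.8 CPM in KO. KO replicate 3 came close to WT replicate 3 without crossing it, and the log2 fold change was -0.53 ± 0.14 with an adjusted p of 0.118 by edgeR.

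Mrpl12, the multi-copy protein that Mrpl10 carries and that also binds the mitochondrial RNA polymerase, did not follow its partner. It lay at 191, 224, 220 and 225 CPM in WT and at 135, 123, 224 and 252 CPM in KO. KO replicates 1 and 2 lay far under the WT range, whereas KO replicate 3 lay inside it and KO replicate 4 above it. Its log2 fold change was -0.23 ± 0.23, with an adjusted p of 0.577 by edgeR. Mrpl11, at the base of the same stalk, had WT and KO means of 54.8 ± 5.32 and 54.4 ± 6.34 CPM (SD, n = 4), with overlapping groups.

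Mrpl21, Mrpl40, Mrpl42 and Mrpl44 were also low in every KO library. Mrpl21, a bacterial-family protein, lay at 45.0, 47.1, 51.1 and 45.9 CPM in WT and 26.8, 40.999, 37.7 and 36.3 CPM in KO, with a log2 fold change of -0.42 ± 0.14. Mrpl40, found only in mitochondrial ribosomes, lay at 30.5, 31.7, 31.2 and 35.6 CPM in WT and 20.3, 26.1, 27.2 and 26.6 CPM in KO, with a log2 fold change of -0.37 ± 0.12. Mrpl44, which carries a ribonuclease III-like fold, lay at 31.3, 34.02, 31.4 and 33.8 CPM in WT and 22.3, 27.2, 27.6 and 25.4 CPM in KO, with a log2 fold change of -0.35 ± 0.10. In all 3 genes KO replicate 1 was the lowest library and the other KO libraries lay close together. Mrpl42 lay at 195, 189, 240 and 180 CPM in WT and 106, 135, 169 and 172 CPM in KO. Its log2 fold change was -0.47 ± 0.17, and KO replicate 4 came within 10 CPM of WT replicate 4. The adjusted p-values by edgeR were 0.153, 0.156, 0.134 and 0.177 for Mrpl21, Mrpl40, Mrpl44 and Mrpl42.

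In the small subunit, Mrps18b, Mrps31 and Mrps2 were low in every KO library. Mrps31, with no bacterial counterpart, lay at 32.4, 38.4, 35.4 and 40.9 CPM in WT and 20.8, 23.9, 30.7 and 24.99 CPM in KO. Its groups did not overlap, and the log2 fold change was -0.55 ± 0.14 with an adjusted p of 0.105 by edgeR. Mrps2, a bacterial-family protein, lay at 62.1, 62.6, 63.9 and 81.0 CPM in WT and 41.8, 42.9, 58.3 and 56.0 CPM in KO. KO replicates 3 and 4 lay near the lower 3 WT libraries, and the log2 fold change was -0.44 ± 0.15 with an adjusted p of 0.161 by edgeR. Mrps22, a mitochondria-specific protein, lay at 18.5, 19.0, 18.8 and 20.5 CPM in WT and 9.66, 12.9, 20.2 and 13.9 CPM in KO. Its WT libraries were tight, and KO replicate 3 alone reached them.

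Mrps36, the dehydrogenase component, was low in every KO library like Mrps18b, Mrps31 and Mrps2, whereas the groups overlapped in most Mrps genes. It lay at 144, 142, 124 and 137 CPM in WT and 90.7, 112, 119 and 111 CPM in KO, without overlap, with a log2 fold change of -0.34 ± 0.11 and an adjusted p of 0.161 by edgeR. Mrps30, a large subunit protein despite its name, lay at 50.8, 50.1, 52.9 and 50.04 CPM in WT and 39.4, 48.6, 45.1 and 45.0 CPM in KO. The groups did not overlap, but KO replicate 2 came close to WT, and the log2 fold change was -0.20 ± 0.10. Mrpl58, a peptidyl-tRNA hydrolase that frees stalled ribosomes besides being a subunit, lay at 38.4, 38.3, 33.7 and 33.2 CPM in WT and 27.7, 30.6, 36.2 and 36.4 CPM in KO. KO replicates 1 and 2 were the lowest of its 8 libraries and KO replicates 3 and 4 lay within the WT range.

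**Figure D3:**
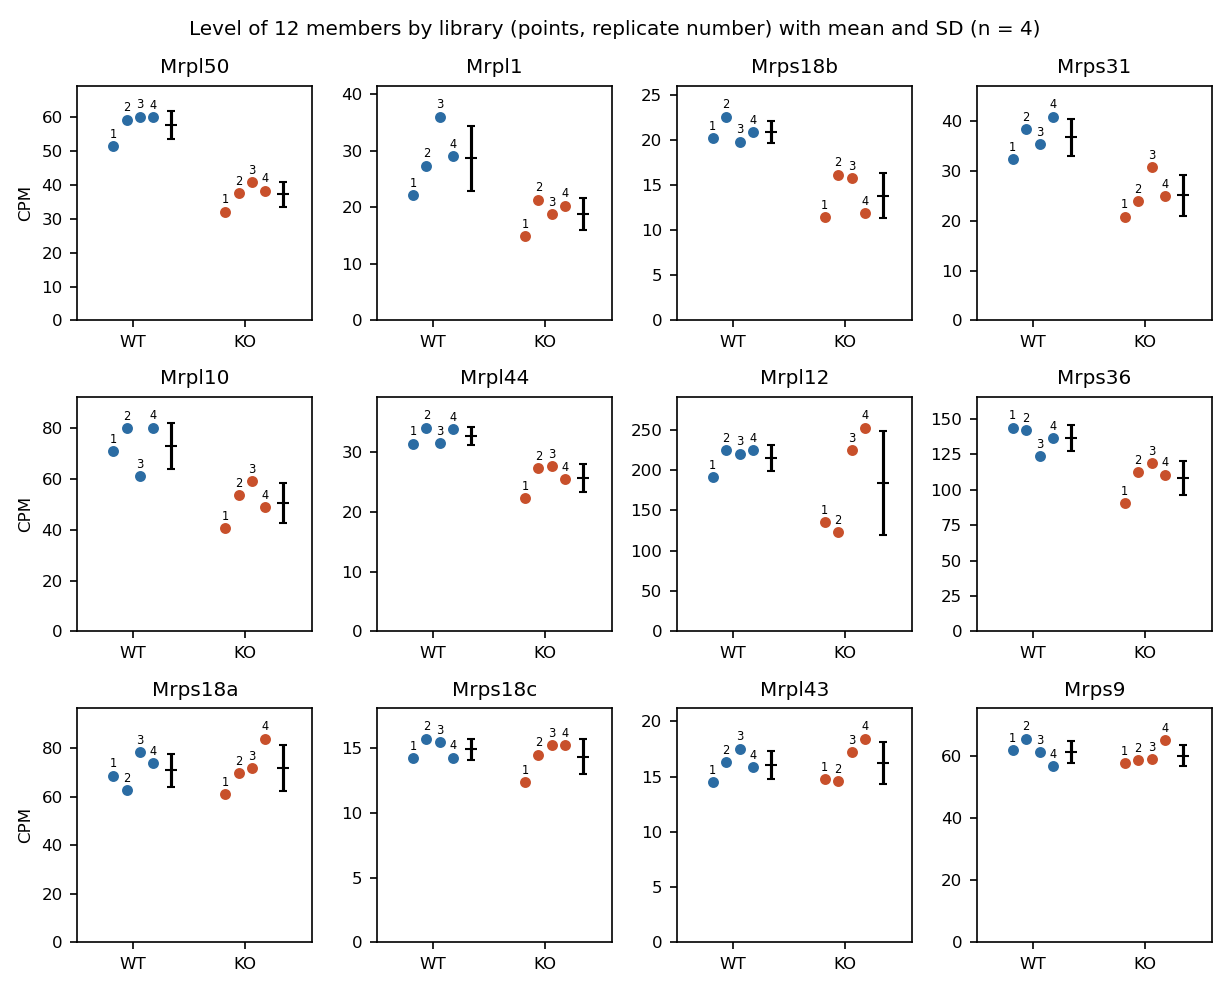
CPM under TMM scaling of 12 members in each library (points, numbered by replicate), with the mean and SD of each group (n = 4). Mrpl50, Mrpl1, Mrps18b, Mrps31, Mrpl10, Mrpl44 and Mrps36 have all KO points below all WT points, Mrpl12 splits the KO libraries into a low and a high pair, and the last 4 genes overlap.

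The 3 Mrps18 genes are paralogs whose proteins take different places: that of Mrps18a lies in the large subunit, those of Mrps18b and Mrps18c in the small one. Mrps18b lay at 20.2, 22.6, 19.8 and 20.9 CPM in WT and 11.4, 16.2, 15.8 and 11.9 CPM in KO, without overlap. Its log2 fold change was -0.60 ± 0.15, with an adjusted p of 0.103 by edgeR. Mrps18c lay at 14.2, 15.7, 15.5 and 14.2 CPM in WT and 12.4, 14.5, 15.2 and 15.2 CPM in KO, and Mrps18a at 68.5, 62.7, 78.3 and 73.6 CPM in WT and 61.0, 69.7, 71.8 and 83.8 CPM in KO. Both overlapped, with log2 fold changes of -0.06 ± 0.12 and 0.02 ± 0.12. Mrps18b thus stood apart from both paralogs, and the ratio within each library puts this without any scaling.

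The log2 ratio of Mrps18b to Mrps18c was 0.51, 0.52, 0.36 and 0.55 in WT replicates 1 to 4 and -0.11, 0.16, 0.05 and -0.36 in KO replicates 1 to 4. The groups did not overlap and the means differed by -0.55, with p = 0.0286 in an exact two-sided permutation test, the smallest p that 4 against 4 libraries allow (0.0429 adjusted over the 3 pairs). The log2 ratio of Mrps18b to Mrps18a was -1.76, -1.47, -1.98 and -1.82 in WT and -2.42, -2.11, -2.19 and -2.82 in KO. These too did not overlap, with a difference of -0.62 and the same exact permutation p of 0.0286 (0.0429 adjusted). The ratio of Mrps18c to Mrps18a differed by -0.07, with an exact permutation p of 0.6. Mrps18b already had the lowest fold change of the Mrps genes, without overlap, and these tests were chosen with earlier results known. Both low ratios share Mrps18b, so their p-values describe its separation from the paralogs and add no independent support for it.

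KO replicate 1 was the lowest of the KO libraries in 70 of the 78 members (89.7%), as in 28.2% of all genes. KO replicates 2, 3 and 4 were the lowest in 7, 1 and 0 members. In 50 members (64.1%), 31 large and 19 small, KO replicates 1 and 2 both lay below KO replicates 3 and 4, against 21.8% of all genes. Of these 50, 21 members, 16 large and 5 small, had KO replicates 1 and 2 below all WT libraries and KO replicates 3 and 4 not, against 5.03% of all genes. KO replicates 1 to 4 lay below all WT libraries in 74, 49, 29 and 26 members. The KO libraries thus differed widely in how many members were low.

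Leaving out KO replicate 1 narrowed the spread of the members within KO. The median coefficient of variation over members was 7.97% in WT and 15.0% in KO, and 8.61% in KO without replicate 1. It was larger in KO than in WT in 66 members (84.6%, against 53.5% of all genes). Once KO replicate 1 was left out, it was larger in 39 of the 78 members and in 6417 of all 13901 genes. No other KO library was left out for this measure. Without KO replicate 1 the members' median log2 fold change was -0.13 in place of -0.22, and 64 members lay below 0. Leaving out KO replicate 4 gave -0.28, with all 78 members below 0.

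Brown adipocyte markers were also lowest in KO replicates 1 and 2. The 7 markers summed to 9826, 10171, 8260 and 10282 CPM in WT and 5850, 4857, 8053 and 7886 CPM in KO, with 6 of 7 below 0. The 7 general adipocyte markers summed to 15470, 17082, 14655 and 16695 CPM in WT and 11956, 11055, 15562 and 14646 CPM in KO, again with 6 of 7 below 0. Their part in the members' levels was not tested. Per 100 CPM of brown adipocyte markers the members stood at 50.8 to 63.5 CPM in WT and 60.7 to 89.6 CPM in KO, and per 100 CPM of adipocyte markers at 30.9 to 35.8 and 30.6 to 39.4 CPM. On neither ratio did KO lie below WT as a group. For brown adipocyte markers, the 63.5 belonged to WT replicate 3, the library with muscle markers. The remaining WT values, 50.8, 52.0 and 51.1, were all smaller than the smallest KO value. The 89.6 belonged to KO replicate 2, which held the highest summed dendritic cell markers. A sum is weighted towards its most abundant genes. The median log2 fold change was -0.15 over the brown adipocyte markers, -0.53 over the adipocyte markers and -0.22 over the members.

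Markers of endothelial and immune cells lay mostly above 0. Endothelial markers summed to 1286 to 1741 CPM in WT and 1576 to 2687 CPM in KO, with 7 of 8 above 0. Macrophage markers summed to 174 to 267 CPM in WT and 212 to 569 CPM in KO, and dendritic cell markers to 320 to 415 and 487 to 1463 CPM, with 8 of 8 above 0 in both lists. T and NK cell markers summed to 3.17 to 24.2 CPM in WT and 15.4 to 129 CPM in KO, with 9 of 9 above 0. All 5 tested B and plasma cell markers and 6 of 7 mural markers lay above 0, as did 4 of 8 fibroblast and 1 of 5 erythroid markers, and all 10 muscle markers lay below 0. Without WT replicate 3 and KO replicate 2, the median log2 fold change was 0.19 in place of 0.42 for macrophage markers. It was 0.86 in place of 1.35 for dendritic cell markers and 0.84 in place of 1.97 for T and NK cell markers. For endothelial markers it was 0.66 in place of 0.62. In those libraries 2 macrophage and 1 dendritic cell marker lay below 0. Whether these cells had a part in the members' levels was not tested.

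Per kilobase of transcript the members spanned a wide range of levels. The highest large subunit genes in WT were Mrpl30 and Mrpl42, at means of 369 and 304 CPM per kilobase, and the highest named for the small subunit were Mrps36 and Mrps21, at 215 and 180. The lowest were Mrpl19 and Mrpl1, at 4.66 and 8.34, and Mrps25 and Mrps26, at 8.47 and 10.7. These are RNA levels; in the ribosome itself nearly all subunits occur as single copies. Mrpl30, the highest, lay at 256, 256, 226 and 240 CPM in WT and 188, 225, 216 and 215 CPM in KO, just without overlap, with a log2 fold change of -0.21 ± 0.11. Over the members, fold change and transcript length had a Spearman correlation of -0.12 across genes, which are not independent replicates, and over 13368 tested genes 0.08.

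Mrps6, Mrpl43, Mrps18a and Mrps16 were the 4 members above 0, all by 0.04 or less. Mrps6 lay at 32.6, 24.9, 30.9 and 32.2 CPM in WT and 21.4, 36.8, 30.6 and 34.8 CPM in KO, with KO replicate 1 lowest and KO replicate 2 highest of all 8. Mrpl43 had WT and KO means of 16.0 ± 1.26 and 16.2 ± 1.89 CPM, and Mrps16 of 76.4 ± 5.73 and 77.2 ± 8.59 CPM (SD, n = 4). The members least like the rest across libraries were Mrpl23 and Mrpl33 of the large subunit and Mrps9 and Mrps26 of the small subunit. Mrps9 lay at 61.9, 65.7, 61.3 and 56.8 CPM in WT and 57.8, 58.7, 59.0 and 65.2 CPM in KO. Its 8 libraries stayed within a narrow band, and KO replicate 1 did not stand out.

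Genes that work with the mitochondrial ribosome lay on the same side. The 5 ribosomal proteins of other names all lay below 0 with a median log2 fold change of -0.22. Among them Ptcd3, a pentatricopeptide repeat protein at the mRNA entry, lay at 70.6, 77.9, 75.6 and 85.9 CPM in WT and 61.0, 54.3, 60.5 and 57.4 CPM in KO, without overlap. Dap3, a GTP-binding subunit, had a log2 fold change of -0.22 ± 0.09, also without overlap. Of 13 tested translation factors 12 lay below 0, with a median of -0.24. Gfm1, the elongation factor that moves the ribosome along the mRNA, lay at 89.5, 96.5, 93.1 and 88.4 CPM in WT and 46.0, 62.6, 73.6 and 63.5 CPM in KO. The gap between its groups was wide, and its log2 fold change was -0.58 ± 0.14 with an adjusted p of 0.103 by edgeR.

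Of 27 assembly and rRNA modification factors 21 lay below 0, with a median log2 fold change of -0.19. Rbfa, which matures the small subunit, had a log2 fold change of -0.73 ± 0.21. Mettl17, another small subunit assembly factor, lay on the other side, at 16.9, 19.7, 16.6 and 19.5 CPM in WT and 26.2, 21.3, 23.3 and 24.7 CPM in KO. All its KO libraries lay above WT, with a log2 fold change of 0.39 ± 0.12 and an adjusted p of 0.134 by edgeR. Of 20 genes of mitochondrial aminoacyl-tRNA synthesis 17 lay below 0 with a median of -0.23, and of 24 tested genes of mitochondrial transcription and RNA processing 21 did, with a median of -0.20. In the latter Grsf1, an RNA-binding protein of mitochondrial RNA granules, had a log2 fold change of -0.51 ± 0.12 and an adjusted p of 0.0992 by edgeR. All 17 import and protein quality genes lay below 0 with a median of -0.36, and their smallest p was that of Pmpca, a subunit of the peptidase that trims imported proteins, at a log2 fold change of -0.51 ± 0.10. No gene of these lists passed an adjusted p of 0.05 in edgeR over the 8 libraries, and under total-size scaling the lists' medians lay between -0.10 and 0.06.

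Products of mitochondrial DNA of 2 kinds matter for this ribosome: the rRNAs it is built on and the mRNAs it reads. The 13 mitochondrially encoded mRNAs all lay below 0, with a median log2 fold change of -0.77 (12 below 0 and a median of -0.52 under total-size scaling), and in 9 of them the groups did not overlap, with KO lower, against 7.56% of all genes. The rRNA genes mt-Rnr1 and mt-Rnr2 had log2 fold changes of -0.15 ± 0.21 and -0.21 ± 0.33 with overlapping groups, in libraries selected for poly(A). Per 100 CPM of these mRNAs the members stood at 1.95, 2.64, 2.44 and 2.44 CPM in WT and 2.75, 3.38, 3.10 and 3.85 CPM in KO. Every KO library lay above every WT library on this ratio.

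Per 100 CPM of the nuclear-encoded respiratory chain, complexes I to V, the members stood at 9.80, 8.93, 10.8 and 9.87 CPM in WT and 9.64, 9.81, 10.3 and 10.4 CPM in KO. The KO range lay inside the WT range, and the means of 9.84 ± 0.75 and 10.05 ± 0.38 (SD, n = 4) differed by less than the SD of WT. WT replicate 3, the library with muscle markers, set the top of that range. KO replicates 3 and 4 lay above the other WT libraries. The log2 fold changes of the chain genes themselves had medians of -0.13 over 36 complex I genes and -0.25 over 41 genes of complexes II to V, which total-size scaling moved to 0.13 and -0.01.

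The ribosome of the cytosol lay the other way. Of 81 tested cytosolic ribosomal protein genes 71 had a log2 fold change above 0, with a median of 0.17 (0.43 under total-size scaling, where all genes had 0.26), and 21 had 4 KO libraries higher than any of WT, against 5.80% of all genes. Rpl37a and Rplp2 had log2 fold changes of 0.53 ± 0.14 and 0.44 ± 0.12, with adjusted p-values of 0.118 and 0.119 by edgeR. Many processed copies of such genes exist in the genome, so reads may be split between them. Per 100 CPM of cytosolic ribosomal protein genes the mitochondrial members stood at 23.2, 21.5, 21.97 and 25.4 CPM in WT and 14.3, 16.9, 19.5 and 18.7 CPM in KO. The groups did not overlap on this ratio, which needs no scaling, with means of 23.0 ± 1.75 and 17.4 ± 2.31 (SD, n = 4).

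**Figure D4:**
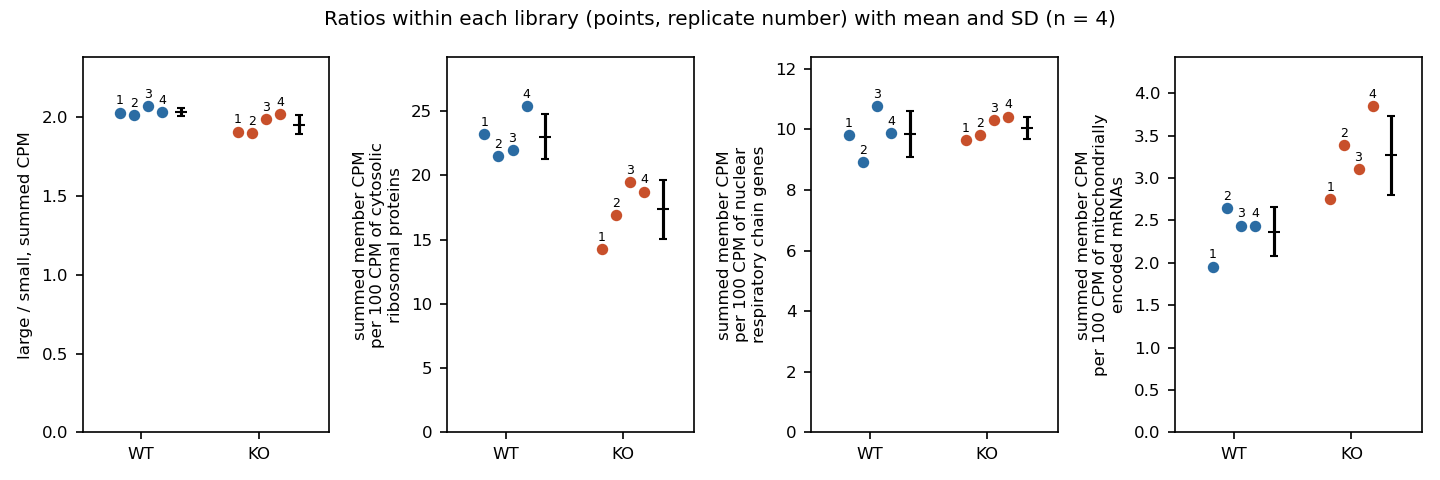
Ratios of summed CPM within each library (points, numbered by replicate), with the mean and SD of each group (n = 4). The ratio to cytosolic ribosomal proteins lies lower and that to mitochondrially encoded mRNAs higher in every KO library, and the ratio to the nuclear respiratory chain overlaps.

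**Figure D5:**
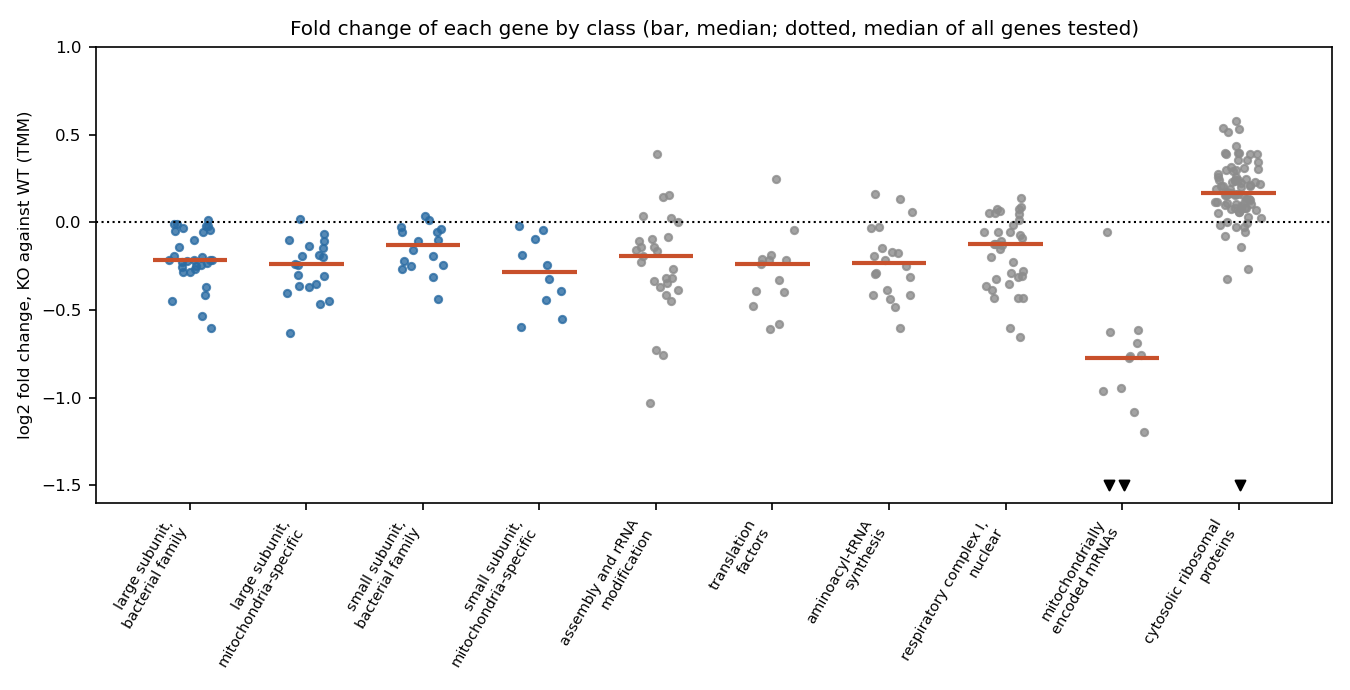
Log2 fold change of each gene, KO against WT under TMM, by class (points), with the class median (bar) and the median of all genes (dotted line). Triangles mark 3 genes below the axis, and only the cytosolic ribosomal proteins have a median above 0.

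Regulators of mitochondrial biogenesis lay on both sides: 7 of 13 were below 0, with a median log2 fold change of -0.02. Tfam, the packaging and transcription factor of mitochondrial DNA, had a log2 fold change of -0.40 ± 0.13 without overlap, and Esrrg, a nuclear receptor of oxidative genes, -1.15 ± 0.34 with overlap. Ppargc1b, a co-activator of such genes, lay at 83.1, 41.7, 52.1 and 47.1 CPM in WT and 140, 91.3, 70.1 and 90.8 CPM in KO. Its KO mean was higher, but WT replicate 1 reached into the KO range, and the adjusted p by edgeR was 0.156.

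Gene neighbours bear on the counting. In GENCODE M21, 27 members had another gene starting within 1000 bases on the opposite strand. Of these partners 15 of 27 lay below 0, with a median log2 fold change of -0.07, where the 27 members had -0.25. Mrpl46 and Mrps11 were each other's partner and so are counted on both sides. The partner of Mrpl50, Zfp189, had -0.07 against -0.63 for Mrpl50, and the partner of Mrps18b, Ppp1r10, had -0.54 against -0.60, both named after their values were seen. Exons of 17 members overlapped those of another gene, in 16 cases on the opposite strand, as for Mrpl21 with Ighmbp2, Mrpl43 with Twnk and Mrps25 with Nr2c2. Mrps6 overlapped Slc5a3 on its own strand. The protocol marks strand, but whether the counting used it is not given in the sources used here, so the values of these members may hold reads of their neighbours.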

How the data were processed

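The deposited table holds 1 whole-number count per gene and library, as the authors made it, with 18395 genes. Per the submitters' processing notes the build was GRCm39. Per the labels' protocols, poly(A) RNA was captured and dUTP marked the second cDNA strand. Aligner, counter and annotation: not given in the sources used here. Symbols came from GENCODE M21 and were found for 18321 genes.

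Genes were kept by filterByExpr, which left 13901. The groups were compared in R 4.3.3 with edgeR 4.0.16, using TMM factors (trimmed mean of M values; 0.914 ± 0.0288 in WT, 1.09 ± 0.0447 in KO; SD, n = 4), its robust quasi-likelihood F test and Benjamini-Hochberg adjustment over all genes at 0.05. Alternatives used limma 3.58.1 and DESeq2 1.42.0. Levels per kilobase use the median length of a gene's protein-coding transcripts in GENCODE M21. Of the lists, Mtres1 and Prorp were not matched. Members, lists and tests were chosen with earlier results of these data known.

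Named members were the 10 with the smallest p, the 3 highest and 3 lowest fold changes and the 2 highest and lowest levels per kilobase in each subunit, the 2 least like the rest in each, up to 10 without overlap, and 8 chosen for their biology. Related lists gave up to 3 genes by p. Genes outside this rule were named after their values were seen. Counts limit the precision of a single library by counting error only.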

Additional observations from a re-analysis of the deposited data

Results flagged for a closer look

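Of 136 groups of 4 libraries tested, 9 had 1 library far from the other 3, by Dixon's test at the 95% level, where chance gives about 1 in 20. Among the members, Mrpl12 was low in WT replicate 1 at 191 CPM, with the next library at 220. Mrpl50 was low in the same library at 51.5 CPM, with the next at 59.3. Mrpl23 was high in WT replicate 3 at 71.7 CPM, with the next at 51.8. Mrps2 was high in WT replicate 4 at 81.0 CPM, with the next at 63.9. Mrpl40 was low in KO replicate 1 at 20.3 CPM, with the next at 26.1. The summed Mrpl genes were low in WT replicate 1 at 3343 CPM, with the next at 3522.

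Among related genes, Gatc, a subunit of the mitochondrial glutamyl-tRNA amidotransferase, was high in KO replicate 3 at 25.02 CPM, with the next at 19.5. Tomm70a, an import receptor, was high in WT replicate 4 at 129 CPM, with the next at 109. Rpl37a, of the cytosolic ribosome, was low in the same library at 147 CPM, with the next at 211.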

How the results depend on the processing

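No gene of 13901 was called by edgeR with TMM, 1450 higher and 1543 lower had an unadjusted p under 0.05, and median-of-ratios or upper-quartile factors and limma-voom also called 0. Total library size called 882 genes, no filter 1, DESeq2 1073, limma-voom with quality weights 951, the 6 libraries 461 and an adjusted p under 0.10 249. Leaving out 1 library in turn called 0 to 361, the most without KO replicate 2. Of the members, DESeq2 called 5, quality weights 6, the 6 libraries 2, an adjusted p under 0.10 1, and leaving out 1 library 0 to 1 (Mrpl50, without KO replicate 2). Total library size moved the large subunit median to 0.031 and the small to 0.063. Large minus small medians were -0.0048 with quality weights, 0.0013 in the 6 libraries and -0.086 to 0.011 leaving out 1 library. The cause was not tested beyond the change of setting itself. Over 29 named members and 21 alternatives, 596 of 609 values stayed on their side of the threshold, 13 passed it and 59 changed sign, none of them called. With the replicate number as a block, 0 genes and 0 members were called, and the large and small medians were -0.24 and -0.20. Deviations of libraries with the same number correlated at -0.04, 0.02, -0.12 and 0.25, and those numbered 2 and 4 were each closest to their own number. The labels do not say that the numbers pair libraries, and so few correlations cannot settle it. Each member had at least 419 counts in every library, and counting error was not separated from the spread between libraries.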
